A study of Rattus norvegicus with 12 samples.

Results

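The effect of sciatic nerve ligation on the lumbar spinal cord was examined irrespective of drug treatment. The ligated side held 8 of the 12 libraries of the series, 4 labelled CCI and 4 labelled CCI+THP, and the other side held the 4 libraries labelled Sham, so all 12 libraries entered. Members were taken from the sample titles, and no measured value was used to choose them. All rats were labelled wild type (WT), and segments L4 to L6 of the cord were collected on postoperative day 10. Sham rats had the sciatic nerve exposed without a ligature. CCI rats had the nerve ligated, and CCI+THP rats had the ligature and received THP in addition, an abbreviation for the alkaloid levo-tetrahydropalmatine of the series title. The ligated side is therefore a mixture of treated and untreated rats. The labels used here name no strain, sex or age of the rats and no dose or schedule of THP.

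Chronic constriction injury is a model of neuropathic pain in which loose ligatures around the sciatic nerve injure part of its fibres. The sensory neurons of that nerve end in the dorsal horn of the lumbar cord, where they contact the neurons that pass pain signals on. After such an injury microglia and astrocytes in the cord are known to become reactive, and the excitability of dorsal horn circuits is known to change. RNA of whole lumbar segments averages the dorsal horn with motor regions and white matter and, depending on how the tissue was cut, injured with uninjured sides. In such bulk tissue a change in the number of cells of a type cannot be told from a change in RNA per cell.

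Each library gives 1 estimated count per Ensembl transcript. No table used here pairs these identifiers with gene symbols. Transcripts are therefore given by identifier, their functions and the cell types that express them are not described, the tissue label was not checked against marker genes, and no sequence is shown. Library totals lay between 82.9 and 110.8 M (mega) counts, and levels are given as CPM, counts relative to the library total, after TMM scaling for library composition. The library totals, the number of transcripts with a count, the share of the 10 most abundant transcripts and the share of counts in scarce transcripts left out of the test did not differ detectably between the sides (exact permutation tests over all assignments of the libraries to sides of 8 and 4, two-sided, 4 measures, p from 0.285 to 0.794, all 0.794 after Benjamini-Hochberg adjustment). The smallest p was for the number of transcripts with a count, at 27610 ± 288 in the ligated and 27450 ± 91.8 in the Sham libraries (SD, n = 8 and 4). Pairwise Pearson correlations of log2 CPM between libraries, across transcripts, ran from 0.934 to 0.946, so no 2 libraries were near copies of each other. CCI replicate 3 stood farthest from the rest, with a mean distance of 1.205 log2 CPM to the other libraries, where the others had 1.135 to 1.18. The main counts and the profile test are therefore given with and without it.

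After ligation, 280 transcripts were higher and 8 lower than in Sham, of 24037 tested (edgeR quasi-likelihood F test, 8 libraries against 4, Benjamini-Hochberg adjusted p under 0.05, two-sided). The share called was 1.2%, with 1.16% higher and 0.0333% lower, and increases made up 97.2% of the calls. The median increase was 1.63-fold, with quartiles of 1.38-fold and 2.03-fold. Of the 280, 180 rose at least 1.5-fold, 74 at least 2-fold and 18 at least 4-fold. Of the 8 that fell, 2 fell at least 1.5-fold and 1 at least 4-fold. Without CCI replicate 3 there were 307 higher and 13 lower, and the median increase was 1.68-fold. The counts of increases were lowest without Sham replicate 2, 3 or 4, at 177, 165 and 162 higher, with 7, 3 and 4 lower. Without Sham replicate 1 there were 212 higher and 7 lower. DESeq2 called 561 higher and 95 lower.

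The median log2 fold change over all transcripts tested was -0.00331 with TMM scaling and 0.0196 when counts were scaled to library totals alone. Such relative levels would not show a shift shared by every transcript. Of all transcripts tested, 48.9% had a positive fold change. An unadjusted p under 0.05 was found for 2229 transcripts, 9.27% of those tested, 1394 of them higher and 835 lower. Increases were thus a larger share of the transcripts past the adjusted threshold than of those past the unadjusted one. With library totals only, 317 transcripts were higher and 5 lower.

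**Figure D1:**
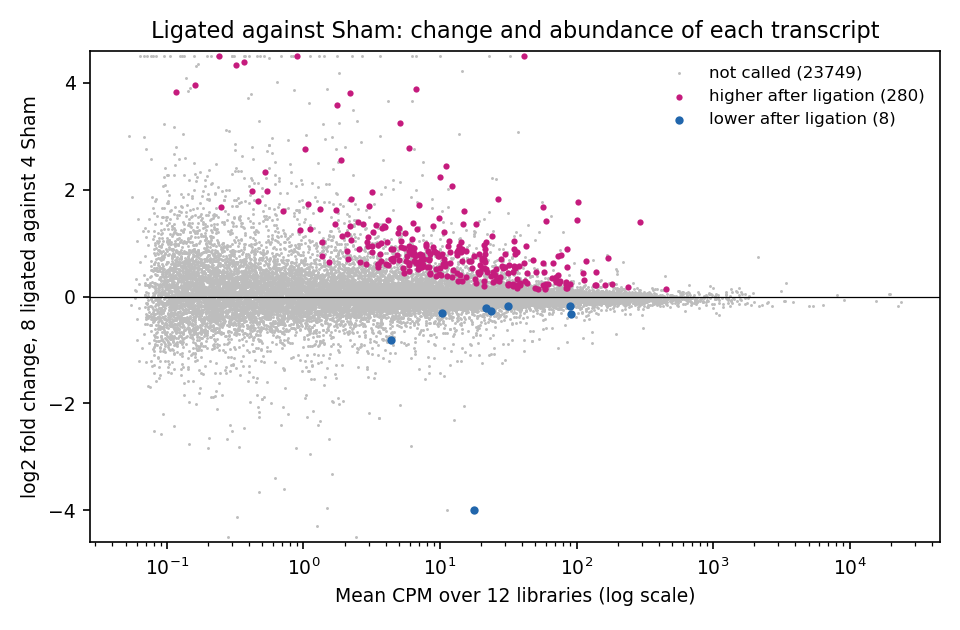
Log2 fold change of the 8 ligated against the 4 Sham libraries (vertical axis) against mean CPM over the 12 libraries (horizontal axis, log scale), 1 point per transcript. Of the coloured points, 280 lie above 0 and 8 below; 44 transcripts beyond ±4.5, 3 of them called, are drawn at the edge.

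In most of the called transcripts the sides separated completely. For 267 of the 280 increases all 8 ligated values lay above all 4 Sham values, and for 7 of the 8 decreases all 8 lay below. Over all transcripts tested such separation was found in 2.33%, 1.89% upward and 0.437% downward. The calls were made on these same values, so the separation among them is largely fixed by the calling. A further 187 transcripts separated upward and 98 downward without passing the adjusted threshold. The within-side spread of the increased transcripts was small, with a median SD of log2 CPM of 0.17 among the 8 ligated and 0.157 among the 4 Sham libraries, where all transcripts tested had 0.219 and 0.178. Transcripts with a small spread pass the test more readily, so this difference is in part fixed by the calling.

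The size of the increases was estimated with limited precision. The lower bound of the 95% interval was at least 1.2-fold for 219 of the 280, at least 1.5-fold for 93 and at least 2-fold for 37. Conversely, for 13931 of the 24037 transcripts (58%) the interval lay wholly within a 1.5-fold change in either direction, and for 17616 (73.3%) within a 2-fold change. For the remaining transcripts, which include the called ones with larger changes, the interval did not exclude a change of that size.

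The called transcripts were of moderate abundance. The increased ones had a median of 10.8 CPM (quartiles 5.16 and 31.3, range 0.118 to 451), against 7.63 CPM for all transcripts tested. Per class of mean abundance, 0.212% of 6144 transcripts under 1 CPM were called, 0.971% of 2781 from 1 to 3 CPM, 2.29% of 4144 from 3 to 10 CPM, 1.64% of 4829 from 10 to 30 CPM, 1.43% of 4207 from 30 to 100 CPM and 0.725% of 1932 at 100 CPM or more. The share was thus highest between 3 and 10 CPM, with 94 increases and 1 decrease. The precision differed between these classes, with a median standard error of the log2 fold change of 0.445 under 1 CPM, 0.132 from 3 to 10 CPM and 0.0461 at 100 CPM or more. The median increase was 5.06-fold for the 13 called under 1 CPM, 1.74-fold for the 94 from 3 to 10 CPM, 1.28-fold for the 57 from 30 to 100 CPM and 1.3-fold for the 14 above. A scarce transcript passes only with a large fold change, so these medians are set in part by the threshold and are not compared. Added together, the 280 transcripts made up 5560 to 5960 CPM in the Sham libraries and 7650 to 8850 CPM in the ligated libraries; they were chosen for being higher, and the sums are a description.

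**Figure D2:**
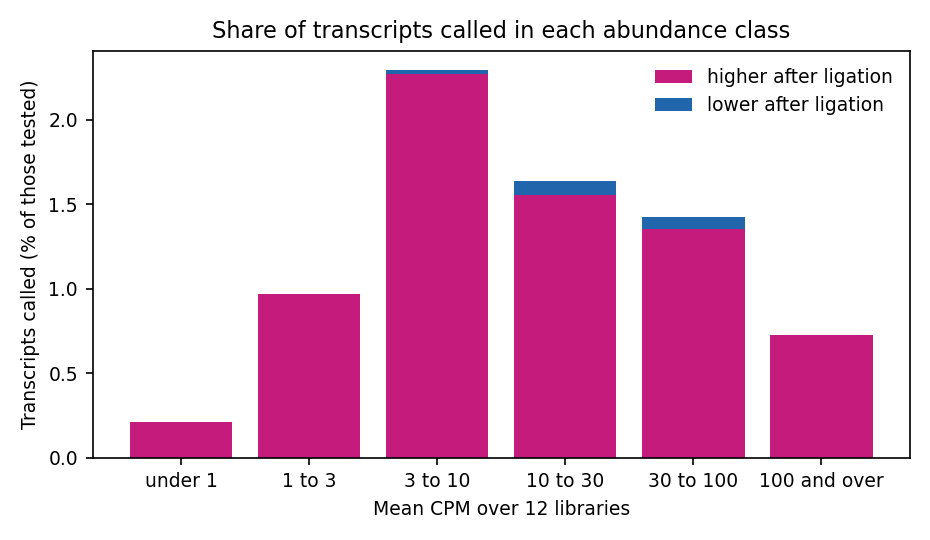
Share of tested transcripts called in ligated against Sham (vertical axis, percent) in 6 classes of mean CPM (horizontal axis), split into higher and lower. The bar from 3 to 10 CPM is the highest at 2.29%, and lower calls occur only between 3 and 100 CPM.

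The 2 increases and the 2 decreases with the smallest p, among called transcripts with no overlap and a mean of at least 1 CPM, are described by library. ENSRNOT00000008503.5 stood at 3.34, 2.3, 3.48 and 2.32 CPM in Sham replicates 1 to 4. In CCI it stood at 14.3, 19.4, 12.4 and 13.2 CPM, and in CCI+THP at 12.1, 11.9, 12.7 and 12.3 CPM. All ligated libraries were well above all Sham libraries, CCI replicate 2 was the highest, and the treated libraries lay close together. The mean rose from 2.86 ± 0.638 CPM (SD, n = 4) to 13.5 ± 2.48 CPM (SD, n = 8). The log2 fold change was 2.24, with a standard error of 0.17 (edgeR adjusted p = 0.000269). This is 4.74-fold, with a 95% interval of the log2 value from 1.86 to 2.62.

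ENSRNOT00000068134.3 was a more abundant transcript with a smaller rise. It stood at 57.3, 53.8, 53.1 and 52.2 CPM in Sham replicates 1 to 4, at 103, 112, 89.1 and 83.6 CPM in CCI and at 99.7, 107, 101 and 108 CPM in CCI+THP. The lowest ligated library, CCI replicate 4, was still above the highest Sham library. The mean rose from 54.1 ± 2.24 CPM (SD, n = 4) to 101 ± 9.79 CPM (SD, n = 8). This is 1.86-fold, or 0.89 on the log2 scale with a standard error of 0.075 (edgeR adjusted p = 0.000395).

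ENSRNOT00000001996.4 had the smallest p of all transcripts and fell after ligation. Its Sham values were 40.1, 38.3, 47.2 and 64.5 CPM. Its CCI values were 2.68, 3.06, 2.29 and 3.4 CPM, and its CCI+THP values 2.89, 3.28, 2.75 and 3.64 CPM. The 8 ligated libraries lay within a narrow range far below every Sham library, among which replicate 4 was the highest. The log2 fold change was -3.99 ± 0.15 (SE; 95% interval -4.31 to -3.66; edgeR adjusted p = 9.33e-08), so the ligated level was 15.8-fold lower. In the ligated libraries the transcript remained detected, with 196 to 362 counts per library.

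ENSRNOT00000058080.2, second by p among the decreases, stood at 32.9, 33.8, 34.2 and 34.5 CPM in Sham. It stood at 29.7, 29.1, 31.1 and 29.9 CPM in CCI and at 31, 29.1, 30.2 and 30.1 CPM in CCI+THP. The sides did not overlap, but the gap between them was narrow. Its log2 fold change was -0.17 ± 0.031 (SE; edgeR adjusted p = 0.0174), a level 1.13-fold lower. This call was lost without Sham replicate 2, 3 or 4 (edgeR adjusted p = 0.0573, 0.0852 and 0.0799), with library totals only (0.055) and with either ligated group alone against Sham (0.211 and 0.13). Over the 7 decreases other than ENSRNOT00000001996.4 the log2 fold changes ran from -0.809 to -0.171 and the adjusted p-values from 0.0174 to 0.0458. The count of decreases lay between 3 and 13 when single libraries were left out. All 4 named transcripts passed without CCI replicate 3.

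**Figure D3:**
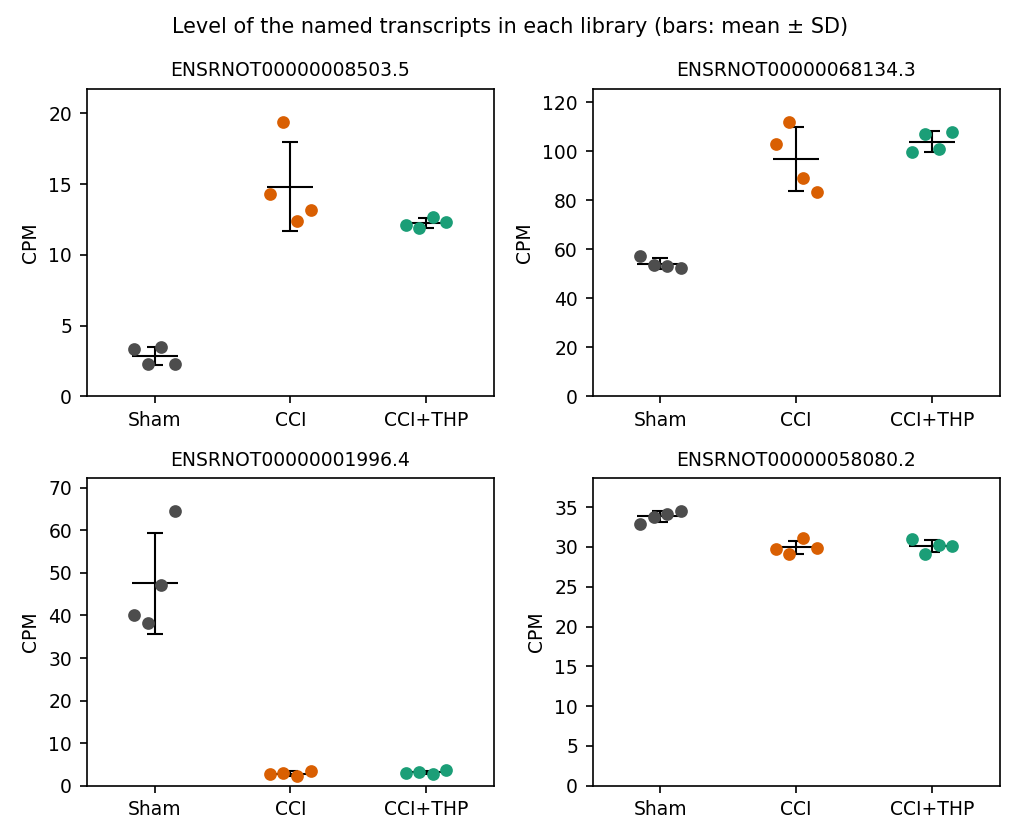
CPM (vertical axes, from 0) of the 4 named transcripts in each library by group; points are libraries and bars mean ± SD (n = 4 per group). CCI and CCI+THP lie together and apart from Sham in each panel, with the widest separation for ENSRNOT00000001996.4.

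Whether the pooled ligated side was of 1 kind was asked by comparing CCI+THP with CCI, in a fit with 3 group means. The calls against Sham did not choose the direction of this contrast. They did bear on its size, because a difference between CCI and CCI+THP adds to the spread within the ligated side and makes a call against Sham less likely. The values of the called transcripts are therefore a description. Over all transcripts 3 passed, a share of 0.0125% (edgeR adjusted p under 0.05), and 3 also without CCI replicate 3. DESeq2 called 155 over all transcripts (77 higher and 78 lower in CCI+THP) and limma voom 1. None of the 280 increased transcripts was among the calls of edgeR, DESeq2 or limma voom. At an unadjusted p under 0.05, 9 of the 280 were higher and 2 lower in CCI+THP, together 3.93%. Over all transcripts tested 6.96% were past that level, and the lower share of the 280 is in part fixed by how they were called. The median log2 difference of CCI+THP from CCI was 0.0342 over the 280 (quartiles -0.0281 and 0.13), with 186 above 0 and 94 below, and 0.00494 over all tested (quartiles -0.1 and 0.134). For 220 of the 280 the 95% interval of that difference excluded a change of 1.5-fold or more in either direction. For the others a difference of that size between the ligated groups was not excluded. A small spread within the ligated side favours a call against Sham and also narrows this interval. The matching counts over all transcripts tested are not given, so the 220 and the split above and below 0 have no background.

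The 4 named transcripts did not differ detectably between the ligated groups either. The log2 difference of CCI+THP from CCI was -0.27 ± 0.17 (SE) for ENSRNOT00000008503.5, 0.1 ± 0.081 for ENSRNOT00000068134.3, 0.14 ± 0.18 for ENSRNOT00000001996.4 and 0.009 ± 0.037 for ENSRNOT00000058080.2 (edgeR adjusted p = 0.782, 0.863, 0.931 and 0.984).

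The pooled calls included transcripts that passed in neither ligated group alone. In the same fit with 3 group means, 144 transcripts (0.599%) passed in CCI against Sham and 244 (1.02%) in CCI+THP against Sham. Both comparisons use the same 4 Sham libraries and are not independent. Of the 280 increases, 122 had passed in both, 12 in CCI alone, 62 in CCI+THP alone and 84 in neither. Of the 8 decreases, 1 had passed in both, 2 in CCI+THP alone and 5 in neither. Conversely, 9 transcripts that passed in CCI and 57 that passed in CCI+THP did not pass in the pooled comparison. The fitted changes of all 288 had the same sign in both groups, and the 280 had a median log2 difference from Sham of 0.70 for the CCI libraries and 0.73 for the CCI+THP libraries; the choice of transcripts on the same libraries favours both.

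Taken over the whole profile, the sides did not separate at 0.05 with all 12 libraries. They did without CCI replicate 3, a library singled out by its distances to the others. The distance of 2 libraries was taken as the root mean square of their log2 CPM differences over the 24037 transcripts. This measure gives most weight to transcripts with large differences. The median SD within sides over all tested was only 0.219 in ligated and 0.178 in Sham libraries. Its mean was 1.17 between the sides and 1.157 within them, a difference of 0.0133. Of all assignments of the 12 libraries to sides of 8 and 4, 41 gave a difference at least as large, the real one included (exact permutation test, one-sided, p = 0.0828). With 1 minus the Spearman correlation as the distance, the same permutation test gave p = 0.0768. It gave 0.0788 with a prior count of 0.5, 0.0848 with library totals only and 0.125 with transcripts of a mean CPM of at least 5. The largest difference, 0.0248, came from an assignment with 0 Sham libraries on the side of 4. All 40 of the other assignments at or above the real value put CCI replicate 3 on the side of 4. Without CCI replicate 3 the distance was 1.164 between and 1.146 within the sides, a difference of 0.0179. This was the largest of the 330 assignments of the 11 libraries (p = 0.00303 by the exact one-sided permutation test, the smallest value possible with 330), and the next was 0.0164. Leaving that library out took away the 40 competing assignments, and it was chosen from the same distances. This p-value does not allow for that choice. The profile test passed at 0.05 without CCI replicate 1 (p = 0.0424) or CCI replicate 4 (p = 0.0424) as well, and did not pass with any other single library left out (exact permutation p from 0.0576 to 0.236). Within the groups the mean distance was 1.144 for Sham libraries, 1.19 for CCI libraries and 1.128 for CCI+THP libraries. The distance between CCI and CCI+THP was 1.16, the same as between CCI+THP and Sham at this rounding, and CCI was at 1.181 from Sham.

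**Figure D4:**
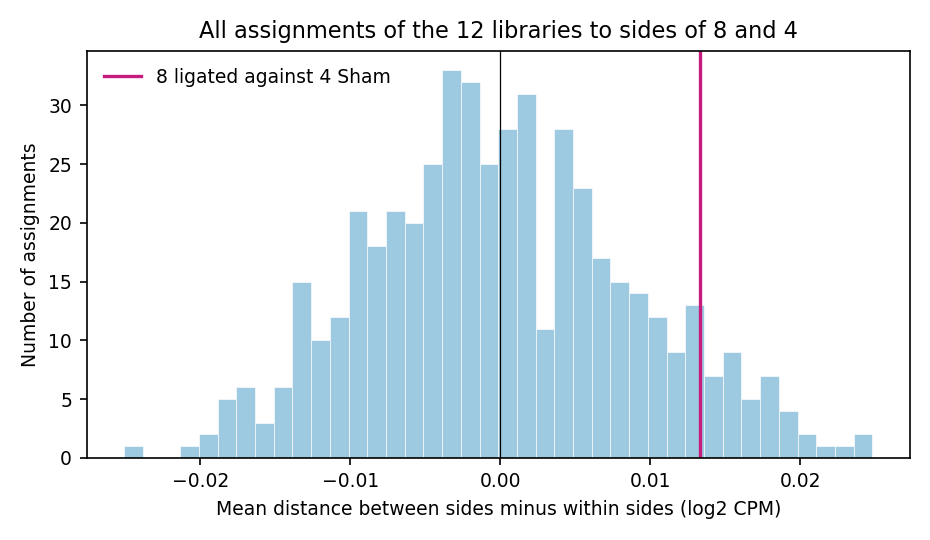
Histogram over all assignments of the libraries to sides of 8 and 4 of the mean distance between sides minus that within sides (horizontal axis, log2 CPM; vertical axis, number of assignments). The line marks ligated against Sham at 0.0133, with 40 other assignments at or beyond it.

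Each library was also placed by transcripts that it had not helped to choose. The comparison was repeated without the library, and the library was then located between the Sham mean (0) and the ligated mean (1) of the remaining libraries, as the median over the transcripts called higher. The CCI libraries stood at 1.08, 1.15, 0.782 and 0.721 for replicates 1 to 4, and the CCI+THP libraries at 1.06, 1.13, 0.842 and 1.02. The Sham libraries stood at 0.255, 0.15, -0.0745 and -0.051. All 8 ligated libraries therefore lay nearer to the ligated mean and all 4 Sham libraries nearer to the Sham mean, and the ranges did not overlap. Among the ligated libraries CCI replicate 4 was the lowest, and among the Sham libraries replicate 1 was the highest.

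The same held for most single transcripts. In the ligated libraries 80.6% (CCI replicate 4) to 98% (CCI+THP replicate 2) of the transcripts called without the library were nearer to the ligated mean. In the Sham libraries 7.27% (replicate 3) to 15.6% (replicate 1) were. The matching share over all transcripts tested is not given, so these percentages are a description without a background. CCI replicate 3, which stood farthest from the other libraries in the whole profile, was at 81.1% of 307 transcripts. Across the 8 ligated libraries the levels of the 280 transcripts varied together to some degree, with a median Pearson correlation of 0.279 over all pairs of transcripts (n = 8 libraries, which share TMM scaling), given as a description.

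**Figure D5:**
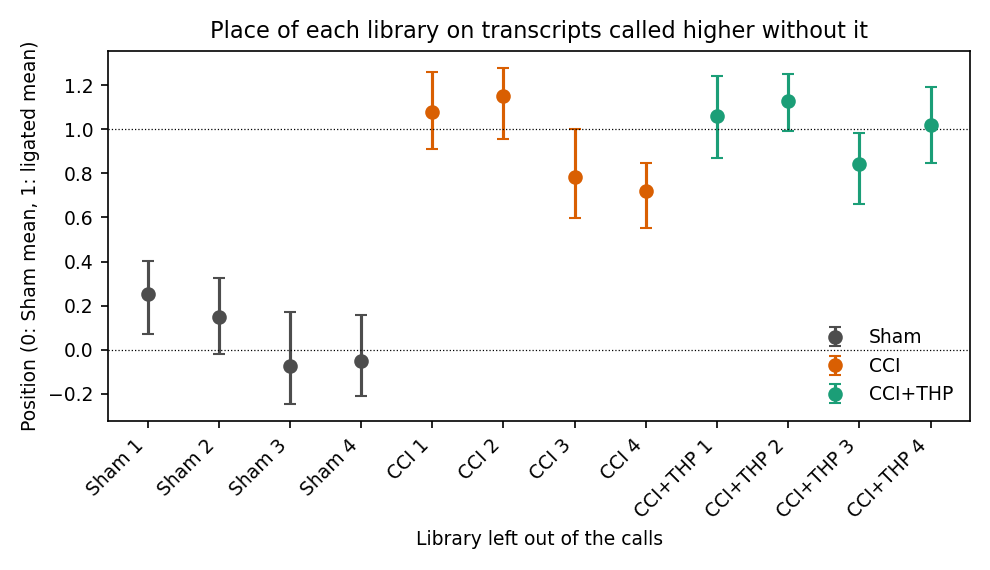
Position of each library (vertical axis; 0 is the Sham mean and 1 the ligated mean of the other libraries) on the transcripts called higher without it; points are medians over transcripts and bars their quartiles. The 8 ligated libraries sit between 0.721 and 1.15 and the 4 Sham libraries between -0.0745 and 0.255.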

How the data were processed

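RNA sequencing of lumbar spinal cord from 12 rats was analysed from the deposited files, which give unscaled estimated counts as whole numbers, listed by Ensembl transcript. Per the labels' protocols RNA was extracted with TRIzol and a NEBNext Ultra kit was used for the libraries. The submitters' processing notes name the build rn4. Whether the transcript identifiers belong to that build could not be settled. No aligner or counting tool is named, and the sources used here do not describe the handling of reads shared by isoforms. Isoforms of 1 gene can trade counts and could not be summed, because 0 identifiers matched the symbol table.

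Each file lists 41078 rows. Transcripts were kept with filterByExpr (minimum count 10, minimum total 15), which set aside 17041 rows with 0.0591% of the counts. The test was edgeR 4.0.16 (R 4.3.3) with TMM scaling and side as the only factor. Standard errors are the absolute log2 fold change over the square root of F, and a prior count of 2 was added before taking log2 CPM. Alternatives were DESeq2 1.42.0, limma voom 3.58.1 with quality weights, other scalings, filters and designs, counts divided by 4, and leaving out each library. Among counts from 8 to 40, multiples of 4 were 1.24 times as frequent as adjacent values, so no counting interval is given and errors are spreads between libraries. Since the design text states 4 rats in every group, a library stands for 1 rat. Named transcripts follow the rule stated with them. The comparison, its lists and rules were chosen with earlier results of these data known. The scripts were tested on simulated data.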

Additional observations from a re-analysis of the deposited data

Results flagged for a closer look

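In 36 groups of 4 or 8 values, a single library lay far from the others by Dixon's ratio in 3, where chance flags about 1 in 20. For ENSRNOT00000008503.5 this was CCI replicate 2, at 19.4 CPM, while the remaining 7 ligated libraries ran from 11.9 to 14.3 CPM.

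The other 2 were the same library, read among the CCI and among all ligated libraries. In CCI replicate 3, transcripts left out of the test as scarce held 0.234% of the counts, against 0.044 to 0.0554% in the other CCI libraries and 0.0362 to 0.056% in the other ligated libraries. One transcript, chosen after its values were seen, held most of this share. ENSRNOT00000072376.1 had 158848 counts in CCI replicate 3, which is 0.189% of that library or 1890 CPM, and at most 1 count in any other library. In the other 11 libraries the highest transcript of this kind (at least 1 CPM in 1 library and under 0.1 CPM in all others) stood at 1.77 to 90.9 CPM. It was not part of the test of ligated against Sham.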

How the results depend on the processing

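The 288 calls of ligated against Sham became 656 with DESeq2, 76 with CCI alone against Sham and 176 with CCI+THP alone, the last 2 from 8 libraries each. Leaving out 1 library gave 166 to 320 calls, and 134 of the 288 (133 higher, 1 lower) passed in all 12 of these fits. The other alternatives gave 217 to 322, and increases were the majority in each. The whole-profile difference was 0.0077 to 0.0179 with 1 library left out. For CCI+THP against CCI, the 3 calls became 155 with DESeq2, 1 with limma voom and 0 to 7 with 1 library left out (edgeR, 1317 to 1872 at an unadjusted p under 0.05). The cause of these shifts was not tested.

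With the replicate number as a block, 217 transcripts passed against Sham (214 higher, 3 lower) and 0 in CCI+THP against CCI (edgeR, 1559 at an unadjusted p under 0.05). The call of ENSRNOT00000058080.2 was lost with the block (edgeR adjusted p = 0.0538; 3.13e-05 to 0.211 over its alternatives). Same-numbered libraries did not deviate together: the 12 correlations of their deviations from the group means ran from -0.035 to 0.031, and 4 of 12 libraries correlated best with their own number, so the numbers were not taken as pairs. The other 3 named transcripts passed in all 23 alternatives (highest adjusted p 0.0264). Precision below 1 CPM was limited, with a median standard error of the log2 fold change of 0.445, and the cause was not tested.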

Other observations

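Among the 280 increases, 3 were at 0 in all 4 Sham libraries. Bounded by a floor of 12 counts per Sham library (0.13 CPM), these 3 still lay above the median log2 fold change of the 280. That median was thus 0.70 with or without the bound and could not move. The most abundant of the 3, ENSRNOT00000083833.1, was chosen after its values were seen. It stood at 55.1, 112, 75.3 and 54.9 CPM in CCI and at 68.3, 80.1 and 45.3 CPM in CCI+THP replicates 1 to 3, and was at 0 in CCI+THP replicate 4 as well as in Sham. So 7 libraries held it at 70.2 ± 22.3 CPM (SD) and 5 held none. It passed against Sham (edgeR adjusted p = 0.0315). The call was lost with limma voom (adjusted p = 0.927), with 3 group means (0.0521), with the replicate block (0.152) and without any 1 library other than CCI+THP replicate 4 (0.0505 to 0.0854). Without CCI+THP replicate 4 it was at 8.67e-05 (edgeR adjusted p). Of its 22 alternatives, 14 lost the call and 8 kept it. Those that kept it included DESeq2 (adjusted p = 9.48e-15), library totals only (edgeR adjusted p = 0.0278) and CCI alone against Sham (0.0155). For CCI+THP alone against Sham there was no value.

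Such all-or-none levels were not particular to this transcript. Of the 24037 tested, 206 were at 0 in at least 1 library and at 10 CPM or more in another. Of these, 70 stood at 10 CPM or more in every library that was not at 0. The zeros of 2 of the 70 included all 4 Sham libraries, and 1 of the 70, ENSRNOT00000083833.1, was called. Whether another isoform of the same gene carried the counts in the libraries at 0 was not tested.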
